A study of Mus musculus with 6 samples.

Results

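The genes described here encode the nuclear subunits of respiratory complex I, the NADH dehydrogenase of the mitochondrial inner membrane. They were chosen by name, as protein-coding genes whose symbol is Nduf followed by a, b, c, s or v and a digit. This rule found 39 genes among the 78317 genes of the table. It leaves out the Ndufaf assembly factors and Ndufab1, an acyl carrier protein that is also part of the complex. The rule uses no measured value. Of the 39 genes, 37 had enough counts to be tested. Ndufa4l2 and Ndufb11b did not, with at most 1 read in any library of either group.

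The libraries came from MCEC, a cultured cell line of mouse cardiac endothelial origin, and comprised 3 with Fat4 knockdown and 3 controls. The knockdown cells are labelled ShFat4, a short hairpin RNA against the atypical cadherin Fat4, and the control cells are labelled wild type. The sources used here do not say if the control cells carried a hairpin without a target, if the knockdown line was a clone or a pool, or if libraries of 1 group were grown separately. The p-values therefore reflect only how far these libraries differ from each other, which may be technical variation. No time point, drug or further allele is given for either group.

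Complex I takes electrons from NADH and passes them through a flavin and a chain of iron-sulfur clusters to ubiquinone, and it pumps protons across the inner membrane as it does so. Its peripheral arm holds the N module, which oxidises NADH, and the Q module, which reduces ubiquinone. Its membrane arm has a proximal and a distal part, built from hydrophobic subunits encoded in mitochondrial DNA and from many nuclear accessory subunits. The core subunits carry out the catalysis and have bacterial relatives, while the accessory subunits surround them and take part in assembly and stability. Endothelial cells are known to make much of their ATP by glycolysis, but endothelial markers were sparse in these libraries, so this may not apply here.

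The knockdown libraries held 10509069 to 11538010 counts and the control libraries 10305810 to 11870091. The targeted gene Fat4 had 8.5, 10 and 9 counts in the knockdown libraries, against 10, 22 and 31.5 in the control libraries, and control library 1 stood level with the highest knockdown library. Its log2 fold change was -1.17 (SE 0.35, edgeR quasi-likelihood test, adjusted p = 0.0330). This call did not hold in 5 of 6 leave-one-out fits. Endothelial markers were sparse in both groups: 9 of 12 had under 1 CPM (counts per 1000000 counts of the library) in both, and Tie1, Vwf, Erg, Cldn5 and Emcn had a count of 0 in all libraries. The endothelial list summed to 76.2 to 80.8 CPM in knockdown and 83.8 to 93.6 CPM in control libraries, with Eng and Flt1 lower in the knockdown and Cd34 not called. The call of Eng held in 2 of 6 leave-one-out fits and that of Flt1 in 6. Mesothelial markers summed to 1465 to 1513 CPM in knockdown and 1652 to 1746 CPM in control libraries, with 3 of 8 called lower. Of these 3 calls, that of Wt1 held in 0 of 6 leave-one-out fits, and those of Upk3b and Lrrn4 in 6. Fibroblast markers summed to 1546 to 1685 CPM in knockdown and 1996 to 2086 CPM in control libraries, with 1 of 4 tested called lower. Most of the fibroblast sum was Col1a1, the gene called lower, which averaged 1513 CPM in knockdown and 1964 CPM in control libraries. Of the other tested fibroblast genes, Dcn and Col1a2 had positive log2 fold changes and Pdgfra a negative one, all without a call. Cardiomyocyte markers summed to 0.893 to 1.82 CPM in knockdown and 0.488 to 1.41 CPM in control libraries, with 5 of 8 at a count of 0 throughout. Leukocyte markers summed to 3.53 to 3.90 CPM in knockdown and 3.18 to 4.18 CPM in control libraries, with 2 of 6 at 0. The part these marker differences have in the complex I values was not tested.

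Many nuclear complex I genes were higher in the knockdown libraries by small amounts, and none was called lower. The edgeR quasi-likelihood test, at an adjusted p under 0.05 over all 13372 genes tested, called 16 of the 37 tested genes higher in knockdown and 0 lower. The 16 include Ndufa4, whose product is now assigned to complex IV (cytochrome c oxidase). Without Ndufa4 the count was 15 of 36, with a median log2 fold change of 0.20. Ndufa4 is kept in counts over all the genes of the rule, but not in those of the modules. Among all genes tested, 8.94% were called higher, 8.44% lower and 17.4% changed in either direction. Of the changed genes 51.4% were higher, against 32.9% when libraries were scaled by their totals alone, where 11 complex I genes and 6.38% of all genes were higher, and 0 complex I genes lower. The 16 genes rose by 1.16-fold to 1.46-fold, log2 fold changes of 0.21 to 0.54. The other 21 genes had log2 fold changes of -0.07 to 0.25 and passed no call. The sign was positive in 33 genes and negative in 4, and the median log2 fold change was 0.20, against -0.01 over all genes tested. No complex I gene was lower at an unadjusted p under 0.05 either, while 26 were higher at that level, against 15.3% of all genes tested. DESeq2 and limma-voom each called 16 genes higher and 0 lower. Of all genes tested, limma-voom called 8.8% higher. DESeq2 called higher 8.24% of the 11038 genes to which it gave an adjusted p. In bulk libraries, fewer cells of a type and less RNA per cell cannot be told apart, so each level is relative to the total of its library. The count of 16 ranged between 4 and 21 when 1 library was left out, and it was 9 once trends with gene length and GC content were removed.

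By module, the highest medians were in the distal membrane arm and the lowest in the Q module. The distal membrane arm had 8 of 11 tested genes called higher and a median log2 fold change of 0.27. The N module had 5 of 10 called higher and a median of 0.21, and the proximal membrane arm 2 of 9 and a median of 0.17. The Q module had 0 of 6 called in either direction and a median of 0.10. Its genes had 2 higher and 0 lower at an unadjusted p under 0.05 by edgeR, and DESeq2 and limma-voom called 0 in it. The 7 core catalytic genes, of the N and Q modules, had 1 called higher and a median of 0.05, and the 29 accessory genes of complex I that were tested had 14 called higher and a median of 0.21. The core genes were longer, with a median exon length of 2178 bases against 1217 bases for the accessory genes. With GC content and exon length trends removed, the core genes had a median of 0.08 and 0 called higher. The accessory genes then had a median of 0.14 and 9 called higher, against 7.28% of all genes tested. A difference between modules, or between core and accessory genes, was not tested.

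**Figure D1:**
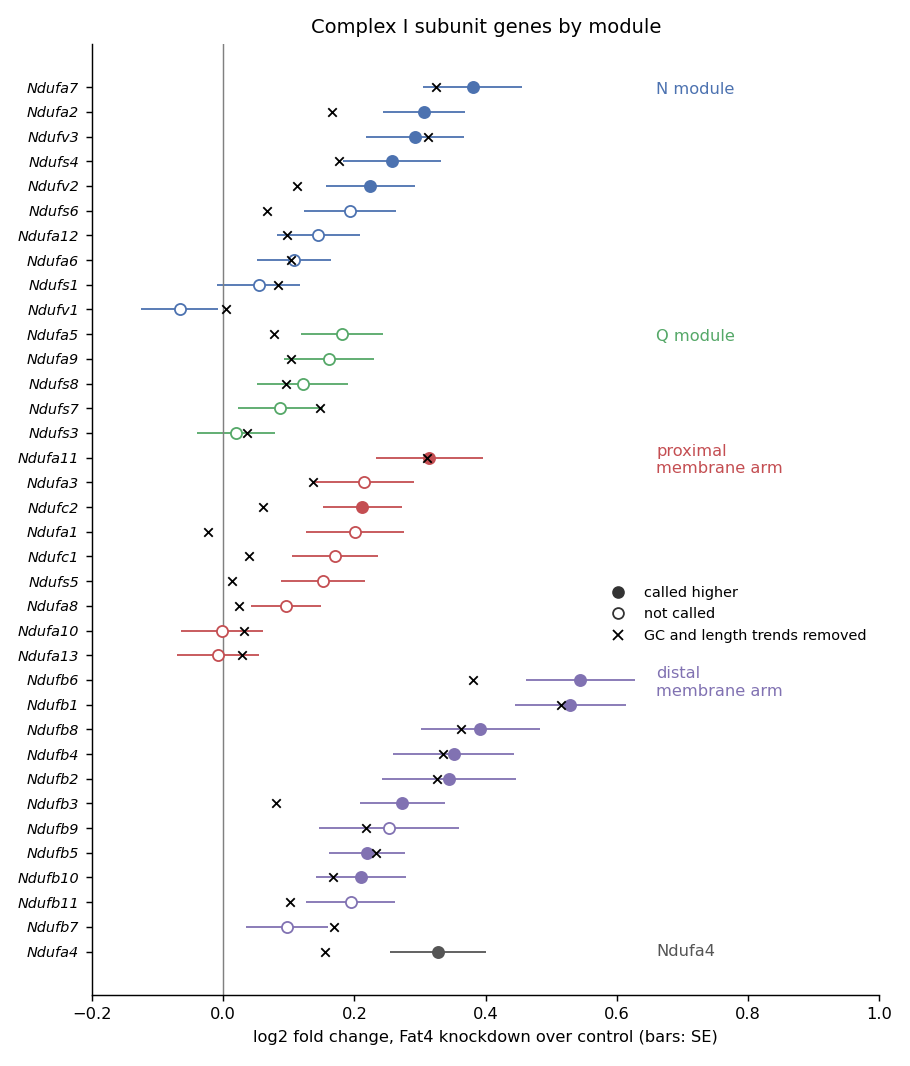
Log2 fold change of 36 of the tested genes, Fat4 knockdown over control (x axis, log2 units), with genes down the page by module; circles are the edgeR estimates with bars of 1 SE, filled where called higher, and crosses are the estimates after GC content and exon length trends were removed. The distal membrane arm holds the highest estimates, 0.54 for Ndufb6 and 0.53 for Ndufb1, and most crosses lie left of their circles.

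In the N module, the accessory gene Ndufa7 had the highest log2 fold change. It had 201, 196 and 173 CPM in the knockdown libraries, against 159, 150 and 130.3 CPM in the control libraries. The groups did not overlap. It averaged 190.2 ± 14.8 CPM in knockdown and 146 ± 14.4 CPM in control libraries (SD, n = 3 each), which is a log2 fold change of 0.38 with an SE of 0.08 (edgeR quasi-likelihood test, adjusted p = 0.00349). Ndufa7 lies at chr17:34043546-34057291 on the plus strand of GRCm39. Ndufa2, an accessory subunit with a thioredoxin-like fold, had 156, 160.0 and 159 CPM in knockdown libraries, against 137, 127 and 119 CPM in control libraries. The 3 knockdown values lay close together and above every control value. Its log2 fold change was 0.31 (SE 0.06, edgeR quasi-likelihood test, adjusted p = 0.00421).

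The catalytic genes of the N module did not move as a group. Ndufv1 carries the flavin that accepts electrons from NADH, and Ndufv2 and Ndufs1 carry iron-sulfur clusters. Ndufv2, at chr17:66385633-66408554 on the minus strand, had 152, 158 and 139.5 CPM in knockdown libraries, against 137, 128 and 120.0 CPM in control libraries. It was the only called core gene, with a log2 fold change of 0.22 with an SE of 0.07 (edgeR quasi-likelihood test, adjusted p = 0.0314), and the lowest knockdown value stood just above the highest control value. Ndufv1 had 141, 129 and 134 CPM in knockdown libraries, against 140.3, 142 and 139.7 CPM in control libraries, a log2 fold change of -0.07 with an SE of 0.06 (edgeR quasi-likelihood test, adjusted p = 0.487). The groups overlapped. Ndufs1 had 73.2, 70.2 and 65.3 CPM in knockdown libraries, against 67.9, 65.6 and 67.6 CPM in control libraries, and it too overlapped, at a log2 fold change of 0.05 (edgeR quasi-likelihood test, adjusted p = 0.605). Per length, Ndufs1 had the lowest level among the tested genes, 8.61 in knockdown and 8.29 in control libraries in RPKM (CPM per kilobase of exon). Ndufv3 and Ndufs4 were the other called genes of the module, at log2 fold changes of 0.29 and 0.26; loss of Ndufs4 causes a fatal encephalopathy in mice. Ndufs6, Ndufa12 and Ndufa6 were not called, at 0.19, 0.15 and 0.11.

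The Q module holds core subunits, among them Ndufs3, Ndufs7 and Ndufs8, that carry electrons to ubiquinone or frame its binding site, with the accessory subunits Ndufa5 and Ndufa9. Ndufs3 had 74.4, 72.8 and 73.3 CPM in knockdown libraries, against 70.2, 75.6 and 71.7 CPM in control libraries. The groups overlapped, with a log2 fold change of 0.02 (edgeR quasi-likelihood test, adjusted p = 0.859). Ndufs7, which carries the last iron-sulfur cluster before ubiquinone, had 99.4, 94.4 and 94.5 CPM in knockdown libraries, against 93.8, 93.7 and 84.2 CPM in control libraries. Ndufs8 had 110.5, 102 and 97.1 CPM in knockdown libraries, against 100.6, 96.2 and 88.1 CPM in control libraries. The values of Ndufs7 were just apart and those of Ndufs8 overlapped, and their log2 fold changes of 0.09 and 0.12 were not called (edgeR quasi-likelihood test, adjusted p = 0.390 and 0.253). Ndufa5 and Ndufa9 had the highest estimates of the module, 0.18 and 0.16, without a call.

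In the proximal membrane arm, Ndufa11 and Ndufc2 were called. Ndufa11, at chr17:57024767-57029141 on the plus strand, had 128, 129 and 114 CPM in knockdown libraries, against 113, 96.5 and 89.1 CPM in control libraries. The lowest knockdown library stood barely above the highest control library. Its log2 fold change was 0.31 (SE 0.08, edgeR quasi-likelihood test, adjusted p = 0.0157). Ndufc2 had 158, 157 and 149 CPM in knockdown libraries, against 141, 128 and 132 CPM in control libraries. This is a log2 fold change of 0.21 with an SE of 0.06 (edgeR quasi-likelihood test, adjusted p = 0.0239). These groups did not overlap. Ndufa10, the gene of lowest level per length in this arm and a relative of nucleoside kinases, had 84.0, 77.5 and 75.9 CPM in knockdown libraries, against 81.0, 76.1 and 80.6 CPM in control libraries. It overlapped throughout, with a log2 fold change that rounds to 0.00 (edgeR quasi-likelihood test, adjusted p = 0.990). Ndufa13, known also as GRIM-19, was at -0.01, and Ndufa3, Ndufa1, Ndufc1, Ndufs5 and Ndufa8 lay between 0.10 and 0.21 without a call.

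The distal membrane arm held the highest fold changes. Ndufb6, at chr4:40270591-40279421 on the minus strand, had 277, 283 and 239 CPM in knockdown libraries, against 204, 183 and 162 CPM in control libraries. It averaged 267 ± 24.1 CPM in knockdown and 183 ± 20.8 CPM in control libraries (SD, n = 3 each), which is a log2 fold change of 0.54 with an SE of 0.08 (edgeR quasi-likelihood test, adjusted p = 0.000969). Ndufb1, at chr12:101934349-101943327 on the minus strand, had 109.6, 104 and 91.3 CPM in knockdown libraries, against 79.0, 69.9 and 63.0 CPM in control libraries. In both genes every knockdown library was above every control library, and knockdown library 3 was the lowest of its group. Ndufb1 averaged 102 ± 9.43 CPM in knockdown and 70.6 ± 8.003 CPM in control libraries (SD, n = 3 each), which is a log2 fold change of 0.53 with an SE of 0.08 (edgeR quasi-likelihood test, adjusted p = 0.00113). Ndufb6 and Ndufb1 are small accessory subunits of the membrane arm. Ndufb5, the gene of lowest level per length in this arm, had 74.8, 75.1 and 75.5 CPM in knockdown libraries, against 64.9, 65.5 and 63.4 CPM in control libraries. Its replicates were close together, at 75.2 ± 0.368 CPM in knockdown and 64.6 ± 1.11 CPM in control libraries (SD, n = 3 each), and its log2 fold change was 0.22 (SE 0.06, edgeR quasi-likelihood test, adjusted p = 0.0170). Ndufb8, Ndufb4, Ndufb2, Ndufb3 and Ndufb10 were the other called genes, at 0.39, 0.35, 0.34, 0.27 and 0.21, and the groups overlapped in Ndufb2 and Ndufb10. Ndufb9, Ndufb11 and Ndufb7 were not called, at 0.25, 0.19 and 0.10.

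**Figure D2:**
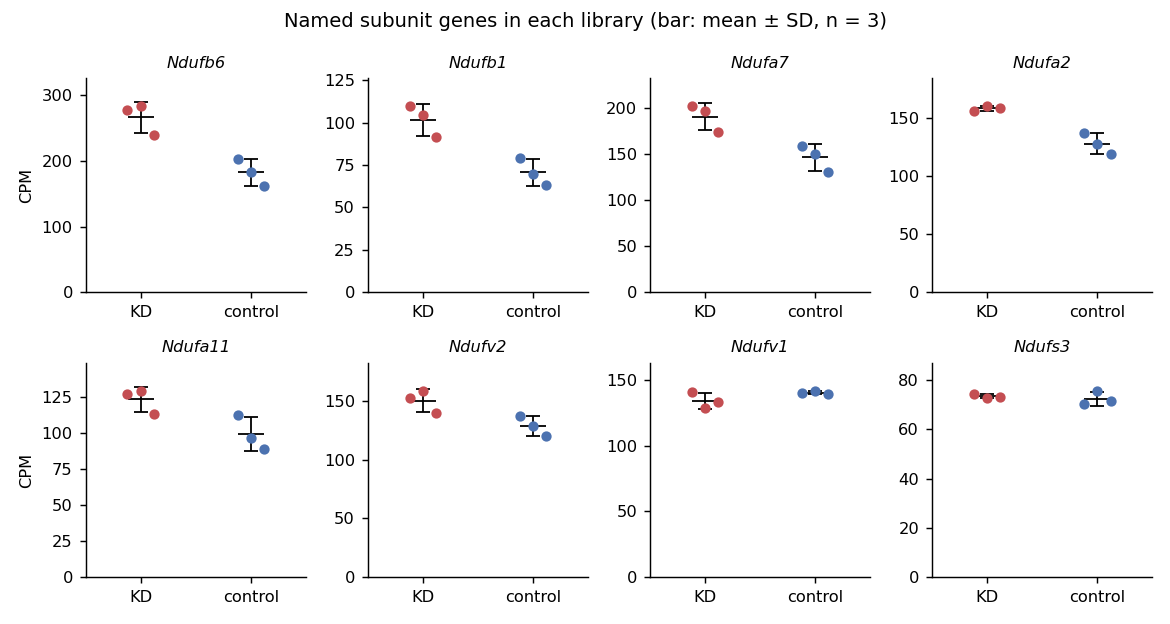
CPM in each library (y axes, from 0) of 8 of the genes, with Fat4 knockdown on the left and control on the right of each panel; points are libraries and bars are the mean ± SD (n = 3). Ndufb6, Ndufb1, Ndufa7, Ndufa2, Ndufa11 and Ndufv2 show no overlap between groups, while the flavin-carrying Ndufv1 and the core gene Ndufs3 overlap.

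Ndufa4 was found by the naming rule, but its product is now assigned to complex IV (cytochrome c oxidase). Per length it had the highest level, 841 RPKM in knockdown and 671 RPKM in control libraries, ahead of Ndufb6 in knockdown libraries (404 RPKM) and Ndufa8 in control libraries (298 RPKM). It had 1205, 1199 and 1082 CPM in knockdown libraries, against 1030, 915 and 834 CPM in control libraries. Its log2 fold change was 0.33 (SE 0.07, edgeR quasi-likelihood test, adjusted p = 0.00702), with no overlap between groups. All the genes of the rule together summed to 6008, 5878 and 5570 CPM in knockdown libraries, against 5294, 4931 and 4633 CPM in control libraries. Without Ndufa4 and its relative Ndufa4l2 the sums were 4803, 4679 and 4489 CPM in knockdown libraries, against 4264, 4016 and 3799 CPM in control libraries. Either way the groups did not overlap, and control library 3 was the lowest.

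The spread between control libraries was ordered alike in many of the genes. Control library 1 was the highest control library in 27 of 37 genes, and control library 3 was the lowest of all 6 libraries in 22. The shares of all genes with these orders were not counted, so the orders cannot be called particular to these genes. The median log2 deviation of the 37 genes from their control mean was 0.22, 0.24 and 0.16 in the knockdown libraries, against 0.07, 0.00 and -0.09 in the control libraries. Over all genes tested, after scaling, the medians of the libraries lay between -0.013 and 0.004. Every knockdown library stood above every control library in 23 of the genes, against 17.4% of all genes tested, and the opposite order was found in 0. These 23 comprise 14 of the 16 called genes and 9 that were not called. Without control library 1, 21 of the genes were called higher, among them all 16, and 11.9% of all genes. Without control library 2 the count was 4, with 3.87% of all genes called higher, and without control library 3 it was 7, with 4.62%. Leaving out knockdown library 1 gave 7 (4.49% of all genes), knockdown library 2 gave 6 (4.1%) and knockdown library 3 gave 15 (7.33%). The share of all genes called higher thus moved in the same direction as the count of complex I genes. Ndufb6, Ndufb1, Ndufa7 and Ndufa2 were called in each of the 6 fits that left out a library, and the other 12 called genes lost the call in at least 1 of them.

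**Figure D3:**
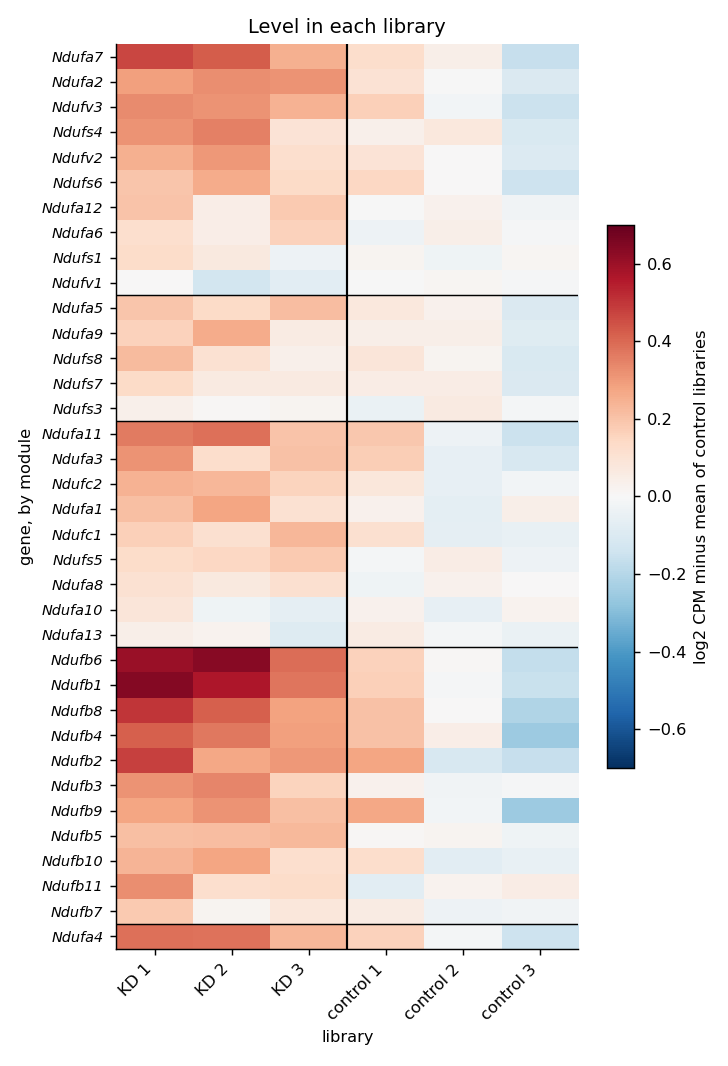
Log2 CPM of 36 of the tested genes in each library minus the mean of the control libraries (colour scale, log2 units), with knockdown libraries (KD) left of the vertical line, control libraries right of it and horizontal lines between modules. Red marks levels above the control mean. The 3 knockdown columns are red in most rows, the distal membrane arm most so, and control library 3 is blue in most rows, with a median deviation of -0.09.

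Gene length moved with the fold changes over the whole table. The median log2 fold change of all genes was 0.17 in the tenth of genes with the shortest exon length, where 21.7% were called higher and 1.64% lower, and -0.10 in the tenth with the longest. The complex I genes are short: their median exon length was 1495 bases (range 419 to 8086), against 4036 bases over all genes tested, and 23 of 37 fell in the 2 shortest of the 10 length groups. Their log2 fold changes lay above the median of their own length group in 32 of 37 genes. GC content had a trend as well, with median log2 fold changes of 0.08 in the tenth of genes lowest in GC and -0.12 in the highest. The complex I genes had a median GC content of 51.5%, against 49.4% over all genes tested, and all 37 lay above the median of their GC group. Across the 37 genes, Spearman's rho of the log2 fold change was -0.19 with exon length and -0.40 with GC content, against -0.25 and -0.23 across all genes. These are descriptions across genes, which share the 6 libraries.

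With the length and GC trends of each library removed, 9 of the 37 genes were called higher and 0 lower by edgeR, and 7.28% of all genes were called higher. No gene was lower at an unadjusted p under 0.05. The 9 genes were Ndufa7, Ndufa2 and Ndufv3 in the N module, Ndufa11 in the proximal arm, and Ndufb6, Ndufb1, Ndufb8, Ndufb4 and Ndufb5 in the distal arm, all called without the correction too. The median log2 fold change of the genes was then 0.10, against 0.01 over all genes. By module the corrected medians were 0.23 in the distal arm, 0.11 in the N module, 0.09 in the Q module and 0.03 in the proximal arm. Ndufb1 kept a log2 fold change of 0.51 and Ndufb6 had 0.38, and both stayed called. The 7 genes that lost the call had 0.33 (Ndufb2), 0.18 (Ndufs4), 0.17 (Ndufb10), 0.16 (Ndufa4), 0.11 (Ndufv2), 0.08 (Ndufb3) and 0.06 (Ndufc2). Ndufa2 had 0.17 and was just inside the threshold, and it was not called with the length trend alone removed. With the length trend alone removed, 12 of the genes and 9.0% of all genes were called higher.

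**Figure D4:**
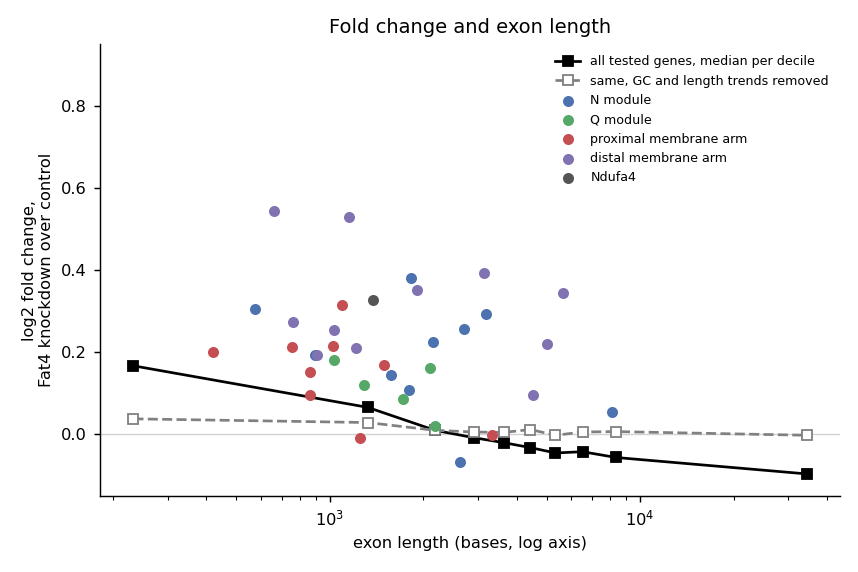
Log2 fold change, Fat4 knockdown over control (y axis, log2 units), against exon length in bases (log axis). Coloured points are 36 of the tested genes by module; black squares are medians of all genes in 10 groups of length, drawn at the geometric middle of each group's range, and open squares are the same with GC and length trends removed. The black line descends across the length groups, its ends being 0.17 and -0.10, and most points lie above it.

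Several of the genes share sequence with other rows of the table, so their counts are uncertain. Ndufa12 had 7039 counts over all libraries and the pseudogene Ndufa12-ps 6369, over a 402-base alignment of 99.5% identity. Ndufs5 had 3172 counts and Ndufs5-ps 3439, and Ndufb4 had 5330 counts while Ndufb4b and Ndufb4c had 2793 and 2786. Ndufb4b was included by its symbol, and no alignment of it to Ndufb4 was found. Ndufs3 shares a 792-base stretch of 98.6% identity with the pseudogene Gm12251. Summing each gene with its copies changed no call among the complex I genes, and Ndufb4 then had a log2 fold change of 0.32. Exons of Ndufb8, Ndufb2 and Ndufb9 overlap another annotated gene on the same strand. Ndufb1 overlaps Cpsf2 by 147 bases and Ndufb5 overlaps Mrpl47 by 616 bases, both on the other strand, and no source used here says whether the counting was strand-specific.

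Other genes of the complex were taken from lists outside the naming rule. Ndufab1, the acyl carrier subunit, averaged 219 ± 6.72 CPM in knockdown and 180 ± 14.3 CPM in control libraries (SD, n = 3 each), which is a log2 fold change of 0.29 with an SE of 0.06 (edgeR quasi-likelihood test, adjusted p = 0.00637). Of 19 assembly factor genes tested, 2 were called higher and 0 lower, a share near the 8.94% of all genes, with 6 higher and 0 lower at an unadjusted p under 0.05, a median log2 fold change of 0.14, and 1 higher and 0 lower by DESeq2 and by limma-voom. The called genes were Tmem126a, at 75.8 ± 6.76 CPM in knockdown and 58.7 ± 3.99 CPM in control libraries (SD, n = 3 each), and Tmem70, at 63.0 ± 4.96 CPM in knockdown and 53.4 ± 5.81 CPM in control libraries. Tmem70 was not called by DESeq2, by limma-voom or with the GC and length trends removed. Tmem126a and Tmem70 take part in building the membrane arm. Of the 7 subunit genes encoded in mitochondrial DNA, 0 were called in either direction by edgeR, DESeq2 or limma-voom, and 0 passed an unadjusted p under 0.05 by edgeR. Their log2 fold changes lay between -0.02 and 0.07, with a median of 0.04. With GC and length trends removed their median was -0.17 and mt-Nd3 was called lower, at -0.28, so their direction depends on that correction.

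Genes of the other respiratory complexes were counted in the same way. Complex II, which oxidises succinate, had 0 of 4 genes called by edgeR, DESeq2 or limma-voom, with 1 higher and 1 lower at an unadjusted p under 0.05 by edgeR, and a median log2 fold change of 0.07. Complex III had 3 of 9 nuclear genes called higher, led by Uqcrh at 0.57, and a median of 0.14. Complex IV, counted without Ndufa4, had 7 of 10 called higher, led by Cox7b at 0.41, with a median of 0.23. The ATP synthase had 7 of 17 called higher, with a median of 0.26, and Atp5mg had the highest estimate among those called, at 0.52. Atp5mk, Atp5mj and Atp5me had higher estimates, at 0.76, 0.64 and 0.61. These genes were not called by edgeR but were called by DESeq2 and limma-voom, which each called 10 of 17 higher. Among all genes tested, edgeR called 8.94% higher. In complexes III and IV and the ATP synthase no gene was lower by edgeR, DESeq2 or limma-voom, or at an unadjusted p under 0.05 by edgeR. With the trends removed, complex III had 3 genes called higher, complex IV 3 and the ATP synthase 9, against 7.28% of all genes tested. Of 10 tested regulators of respiratory genes, such as nuclear respiratory factors and their coactivators, 0 were called in either direction by edgeR, DESeq2 or limma-voom, with 2 higher and 0 lower at an unadjusted p under 0.05 by edgeR. Their median log2 fold change was -0.07. With both trends removed 1 of the 10, Gabpb1, a subunit of GABP, was called higher at 0.22, a share near the 7.28% of all genes. With the length trend alone removed 2 of the 10 were called higher, against 9.0% of all genes. Ppargc1a, a coactivator known to drive mitochondrial genes, averaged 0.152 CPM in knockdown and 0.291 CPM in control libraries, too few counts to be tested.

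The promoters of the genes were searched for the letters that regulators of respiratory genes are known to bind. RefSeq windows of 250 bases before to 50 bases after the start, on build GRCm38.p6, were matched by symbol for 33 of the genes, in 35 windows. That build differs from the GRCm39 of the table, so coordinates of the windows are not those of the gene spans above. The YY1 letters AAGATGGC, on either strand, were in 7 of the 35 windows (20.0%), against 2.75% of all 32851 windows and 4.75% of the windows of genes tested. The NRF1 letters GCGCATGC were in 3 (8.57%, against 5.41% for genes tested), the GABP letters CCGGAAG in 4 (11.4%, against 18.7%) and the ERR alpha letters AAGGTCA in 3 (8.57%, against 2.995%). A match is a run of letters, not a bound site.

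The 7 YY1 matches are printed because they share strand and place: each lies on the strand of its gene and begins 23 to 39 bases after the annotated start. Each stretch has 30 bases, 5′ to 3′ on the gene's strand, with the searched letters in capitals, which contain an ATG. Their places on GRCm38.p6 are chr7:3617384-3617413 for Ndufa3, chr6:126849097-126849126 for Ndufa9, chr19:44555393-44555422 for Ndufb8, chr3:51408915-51408944 for Ndufc1, chr13:114388045-114388074 for Ndufs4, chr13:73328433-73328462 for Ndufs6 and chr10:80249462-80249491 for Ndufs7. Ndufa3 and Ndufs7 are on the plus strand and the others on the minus strand.
Ndufa3: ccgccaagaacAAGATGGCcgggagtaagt
Ndufa9: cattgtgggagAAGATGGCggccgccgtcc
Ndufb8: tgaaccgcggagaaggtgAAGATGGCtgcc
Ndufc1: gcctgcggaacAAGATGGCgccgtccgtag
Ndufs4: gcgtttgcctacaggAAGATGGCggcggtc
Ndufs6: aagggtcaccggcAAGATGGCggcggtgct
Ndufs7: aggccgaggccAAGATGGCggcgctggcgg
Ndufb8 and Ndufs4 were called higher in the knockdown and the other 5 were not, and all 7 had positive log2 fold changes, 0.09 to 0.39. Whether the letters and the fold changes are related was not tested.

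The 250 bases before the start of Ndufb6, the gene with the highest fold change, are printed from chr4:40279422-40279671 of GRCm38.p6 on the minus strand. The capitals mark the GABP letters, here on the opposite strand and so printed as their reverse complement, and they begin 232 bases before the start.
Ndufb6: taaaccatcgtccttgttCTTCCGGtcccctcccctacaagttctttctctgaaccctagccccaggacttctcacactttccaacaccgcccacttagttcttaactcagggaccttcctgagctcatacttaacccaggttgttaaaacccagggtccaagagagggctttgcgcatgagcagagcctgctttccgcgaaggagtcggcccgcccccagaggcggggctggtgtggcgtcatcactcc
The other genes with the GABP letters were Ndufb7, Ndufs3 and Ndufs8, with log2 fold changes of 0.10, 0.02 and 0.12 and no call.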

How the data were processed

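Messenger RNA of 3 Fat4 knockdown and 3 control samples was sequenced as tagmented cDNA. The submitters' processing notes name fastp 0.24.0, STAR 2.7.11 and GRCm39; no source used here names the read counter, the annotation release or how strand was handled. The values used are estimated counts per gene, as deposited, of which 29.0% of the nonzero ones are not whole (tolerance 1e-06); the deposited CPM values are each count over the library total. Counts were rounded, 92 spike-in rows left out, low genes removed by filterByExpr and libraries scaled by TMM. Tests used edgeR 4.0.16 in R 4.3.3 (robust glmQLFit, glmQLFTest, no block), with Benjamini-Hochberg adjustment over 13372 genes. Printed CPM use TMM-scaled totals; the SE is the log2 fold change over the square root of F. GC content came from the longest GRCm38 (GENCODE) transcript per gene identifier, exon length from the deposited table, and both trends were fitted per library with mgcv 1.9.3 and used as offsets. Near-identical copies were found with BLAST+ 2.17.0, except Ndufb4b, which was matched by its symbol. A count of 0 allows 3 counts, 0.253 to 0.291 CPM across libraries, which covers counting error only.

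The complex I genes and the other lists were chosen with earlier results of these data known. Values in every library are given for the core genes, the 2 called genes of largest change and the gene of lowest level per length in each module; of other lists, up to 3 called genes of largest change. 1 gene that the rule takes is in the counts and medians but is not reported here. Ppargc1a, and the genes given by fold change alone, were named after their values were seen. The fit was tested on simulated counts. Alternatives were scaling by RLE, upper quartile or library size, other filters, DESeq2 1.42.0, limma-voom 3.58.1, a replicate block, trend corrections and each library left out. Summed copies, counts rounded down and an estimate of the spread that is not robust were added after seeing the data.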

Additional observations from a re-analysis of the deposited data

How the results depend on the processing

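No complex I gene was called lower under any of the 23 other settings, and no log2 fold change of a called gene reversed. The 16 genes called higher became 9 with GC content and exon length trends removed, and 9 with a replicate block added to that correction. The median log2 fold change of 0.20 became 0.13 with the length trend removed, 0.10 with both trends and 0.10 with both and the block. Leaving out 1 library gave 4 to 21 genes higher: 4 without control library 2, 7 without control library 3 or knockdown library 1, 6 without knockdown library 2, 15 without knockdown library 3 and 21 without control library 1. Over all genes, 2324 were called changed, 1535 by DESeq2, 1397 with block and both trends, and 1029 to 3077 with 1 library left out: 1029 without control library 2, 1226 without control library 3, 1216 without knockdown library 1, 1165 without knockdown library 2 and 3077 without control library 1. Scaling by library size moved the median of all genes to -0.07 and left 11 complex I genes higher, with a median of 0.14; of the genes called there, 32.9% were higher, against 51.4% under TMM. The labels number the replicates, but same-numbered libraries did not deviate together (correlations -0.21, -0.05 and -0.05). This check sees only a shared deviation, so it cannot decide whether the numbers pair samples. With the replicate block, 2001 genes were changed and 18 complex I genes higher. Rounding down and summing copies kept 16 genes higher, and the fit that is not robust had 15. The cause of these moves was not tested. The median SE of the complex I genes was 0.07 on the log2 scale, so log2 fold changes under about that size were within 1 SE of 0.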
